A study of Mus musculus with 24 samples.

Results

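The class I olfactory receptor genes of mouse chromosome 7 were followed in liver: every gene whose symbol on the array runs from Olfr543 to Olfr692 and that has a probe set of its own. There were 108 such genes on 109 probe sets, of 35556 probe sets and 19938 genes with a single symbol on the array, and Olfr617 was represented by the brighter of its 2 probe sets. Liver RNA came from male mice at 24 weeks of age kept on standard chow, with 8 C57Bl6 mice, 8 of the alb-SREBP-1a line, 8 of the alb-SREBP-1a∆P line and 1 array per mouse. All 3 genotypes were on the C57Bl6 background. The alb-SREBP-1a mice carried the N-terminal, active part of human SREBP-1a, a transcription factor of lipid synthesis, as an HA-tagged transgene, and in alb-SREBP-1a∆P mice the same transgene lacked its MAPK phosphorylation sites. Both transgenes were driven by the albumin promoter, which is active in hepatocytes, and the C57Bl6 mice had none. The comparisons ask how either transgene, and the loss of its phosphorylation sites, went with the levels of these genes.

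Olfactory receptors are G protein-coupled receptors of the nose. Each olfactory sensory neuron uses a single receptor allele, which signals through the G protein subunit Gnal, the adenylyl cyclase Adcy3, a cyclic nucleotide-gated channel and the chloride channel Ano2. Class I receptors, the kind first known from fish, lie together in 1 cluster that is interrupted by the beta-globin genes and by Trim genes, and many of them respond to carboxylic acids. Some receptors are also made outside the nose.

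All 108 genes matched a RefSeq gene by gene ID, all were protein coding and all lay on chromosome 7. Of these, 107 carried a MOR number from 1 to 42, the receptor families of class I, and covered 40 families. Olfr652 had a MOR name outside these families and was kept by the rule on symbols. Another 10 RefSeq genes in the same range had no probe set of their own: 7 were on probe sets shared by several symbols and 3 on no named probe set. Of the 108, 11 also shared a probe set of several symbols, so near-copies could exchange signal there, and their values are uncertain.

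The genes were dim in all genotypes. Their mean log2 signal over 24 arrays ran from 2.24 to 5.92 with a median of 4.37, against a median of 5.61 over all probe sets. With all probe sets cut into 10 equal groups by mean signal, 97 of the 108 (89.8%) lay in the dimmest 4. A low signal on these arrays does not by itself show that a receptor was transcribed, and fewer expressing cells cannot be told apart from less RNA per cell in whole liver. The hepatocyte markers were among the brightest probe sets, with a mean log2 signal over 6 of 8 listed genes between 13.6 and 13.9 on each array.

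In alb-SREBP-1a∆P liver 93 of the 108 receptor genes rose against C57Bl6 in the deposited scaling, when 27.0% of all probe sets did. The count was 44 after quantile normalization, 75 after subtracting each array's median (centring) and 49 after cyclic loess. Of all probe sets 12.9%, 13.4% and 16.0% rose after these scalings. Taken per array, the median receptor level was 4.79 ± 0.18 in alb-SREBP-1a∆P, against 4.14 ± 0.085 in C57Bl6 and 4.21 ± 0.12 in alb-SREBP-1a (log2 signal, mean ± SD, n = 8 each). The 8 alb-SREBP-1a∆P arrays lay between 4.45 and 5.02, above the 4.02 to 4.28 of C57Bl6 and the 3.98 to 4.37 of alb-SREBP-1a, and both latter ranges overlapped. Replicate 4 was the lowest of the alb-SREBP-1a∆P arrays, and without it they lay between 4.62 and 5.02. The median of all probe sets also differed, at 5.74 ± 0.036, 5.58 ± 0.034 and 5.58 ± 0.044 in the same order. The spread of all probe sets on an array, as the SD of log2 signal, was 2.06 ± 0.025, 2.22 ± 0.023 and 2.19 ± 0.038. Thus the arrays on which the receptors were higher were also those with the narrower spread, and the part of this in the receptor values was not tested.

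**Figure D1:**
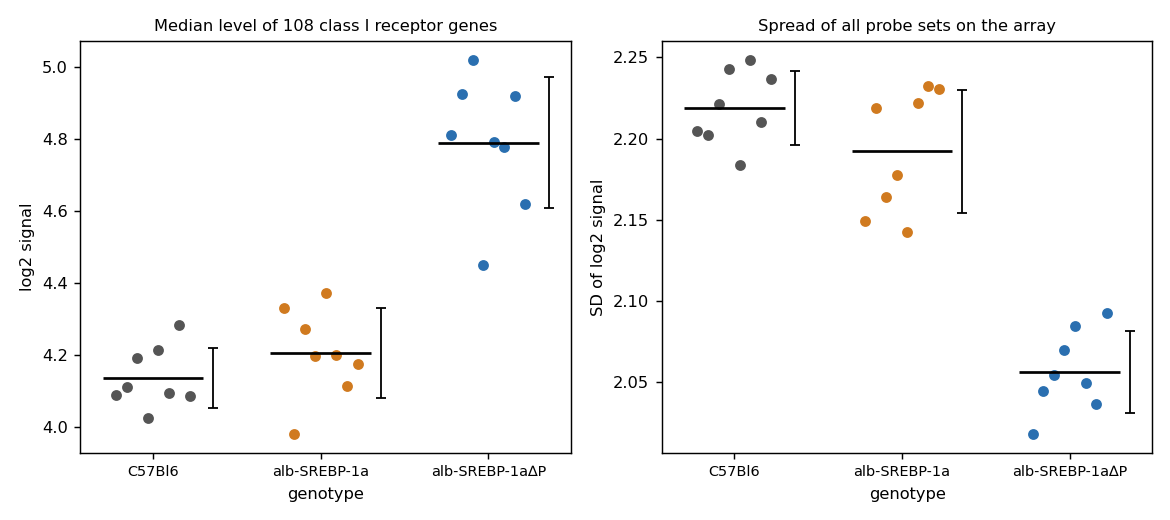
Left, the median log2 signal of the 108 class I receptor genes on each array, by genotype; right, the SD of the log2 signal of all 35556 probe sets on the same arrays. Points are arrays, horizontal lines are means and the bars beside them are the SD over 8 arrays. The 8 alb-SREBP-1a∆P arrays sit between 4.45 and 5.02 on the left, above all arrays of both other genotypes, and below them on the right.

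Against C57Bl6, 93 of the 108 genes (86.1%) rose in alb-SREBP-1a∆P liver, 0 fell and 15 did not pass the test, while 27.0% of all probe sets rose and 20.2% fell. Here and below, rose and fell mean a p from limma under 0.05 after adjustment over all probe sets. Each change is given on the log2 scale, ± its standard error. The median change of the receptor genes was 0.64, against 0.11 over all probe sets, and all 108 values were above 0 in the deposited scaling, with 9, 2 and 8 below 0 after quantile normalization, centring and cyclic loess. At least 1.5-fold rises were seen for 63 genes, against 9.85% of all probe sets. In 29 genes (26.9%) every alb-SREBP-1a∆P array lay above every C57Bl6 array, which held for 5.34% of all probe sets. The counts of 44, 75 and 49 genes after quantile normalization, centring and cyclic loess stood against 12.9%, 13.4% and 16.0% of all probe sets. With these scalings the median over all probe sets shifted by −0.14, −0.16 and −0.11, and the receptors' median above that of all probe sets was then 0.39, 0.53 and 0.36, against 0.53 as deposited. With all of them 44 genes (40.7%) rose. The share of all probe sets that rose with all of them was not computed, and it cannot exceed the 12.9% after quantile normalization.

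Olfr644, a receptor of family MOR13, had the largest change. Its log2 signal ran from 3.65 to 4.19 with a median of 4.02 in C57Bl6, from 3.86 to 4.51 with a median of 4.10 in alb-SREBP-1a and from 4.61 to 5.57 with a median of 5.21 in alb-SREBP-1a∆P. All 8 alb-SREBP-1a∆P arrays lay above both other genotypes, and the change against C57Bl6 was 1.17 ± 0.12 (adjusted p = 2.17e-06), or 2.25-fold. Olfr568, of family MOR14, ran from 3.49 to 4.35 with a median of 4.07 in C57Bl6, from 3.83 to 4.63 with a median of 4.08 in alb-SREBP-1a and from 4.38 to 5.65 with a median of 5.24 in alb-SREBP-1a∆P. Its alb-SREBP-1a∆P arrays did not overlap C57Bl6, and 7 of 8 lay above alb-SREBP-1a. It changed by 1.17 ± 0.16 (adjusted p = 2.93e-05) against C57Bl6. Olfr622 of family MOR26 rose by 1.11 ± 0.17 and Olfr669 of family MOR34 by 1.099 ± 0.16. For both, each of the 8 alb-SREBP-1a∆P arrays was above all C57Bl6 arrays, with Olfr622 at 3.36 to 3.89 in C57Bl6 and 3.93 to 5.45 in alb-SREBP-1a∆P.

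Olfr642 holds the single sterol regulatory element, a motif of SREBP factors, found among the class I receptor windows searched. The 250 bases before the annotated start are shown for Olfr642 and for 3 of the 4 genes above, which had the largest rises. They are from RefSeq on GRCm38.p6, 5′ to 3′ on the gene's strand: Olfr568 at chr7:102876872-102877121 on the plus strand, Olfr644 at chr7:104069030-104069279 on the minus strand, Olfr669 at chr7:104938278-104938527 on the plus strand and Olfr642 at chr7:104050353-104050602 on the minus strand. Capitals mark the homeodomain motif in Olfr669 and the sterol regulatory element in Olfr642.
Olfr568: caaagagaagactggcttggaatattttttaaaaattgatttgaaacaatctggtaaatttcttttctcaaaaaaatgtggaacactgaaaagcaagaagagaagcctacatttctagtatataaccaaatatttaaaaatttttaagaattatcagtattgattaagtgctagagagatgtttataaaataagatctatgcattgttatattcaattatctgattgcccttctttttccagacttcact
Olfr644: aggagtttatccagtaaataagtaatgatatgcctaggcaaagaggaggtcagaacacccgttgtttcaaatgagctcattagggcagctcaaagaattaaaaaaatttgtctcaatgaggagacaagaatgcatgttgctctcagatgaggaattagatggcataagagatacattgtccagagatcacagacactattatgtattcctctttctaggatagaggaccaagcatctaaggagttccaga
Olfr669: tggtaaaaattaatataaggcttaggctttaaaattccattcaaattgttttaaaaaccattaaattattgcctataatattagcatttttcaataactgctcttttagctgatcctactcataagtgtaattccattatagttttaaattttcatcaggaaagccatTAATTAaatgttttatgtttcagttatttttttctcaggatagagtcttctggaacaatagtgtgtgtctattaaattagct
Olfr642: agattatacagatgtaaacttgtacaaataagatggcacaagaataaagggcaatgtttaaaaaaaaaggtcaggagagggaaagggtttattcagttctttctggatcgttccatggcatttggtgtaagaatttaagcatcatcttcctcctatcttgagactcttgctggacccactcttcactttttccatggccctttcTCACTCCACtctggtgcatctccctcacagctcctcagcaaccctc

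A window of 300 bases around the annotated start, 250 before and 50 after it, was held for 92 of the 108 genes. Whether transcription begins at that start was not tested. In these windows 4 motifs were searched on both strands. The sterol regulatory element TCACNCCAC, through which SREBP factors act, was in 1 window (1.09%, Olfr642), in 0.822% of 852 windows of other olfactory receptors and in 1.24% of all 32851 windows. The E-box CACGTG, to which SREBP-1 can also bind, was in 1 window (1.09%, Olfr645), against 2.11% and 7.15%. TAATTA, a core of homeodomain factors such as Lhx2, which act in receptor choice, was in 13 windows (14.1%), against 19.1% of other olfactory receptors and 5.29% of all. The palindromic site of Ebf factors of olfactory neurons was in 0 windows, against 0.587% and 0.904%. No motif overlaps another by its letters. These matches describe letters in the windows.

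The next of the largest rises came from different families. Olfr641 (MOR13) ran from 4.32 to 4.78 with a median of 4.58 in C57Bl6, from 4.53 to 5.34 with a median of 5.03 in alb-SREBP-1a and from 5.15 to 5.90 with a median of 5.70 in alb-SREBP-1a∆P, so that its genotypes stood in 3 steps, and it rose by 1.06 ± 0.098. Its alb-SREBP-1a range reached into both others. Olfr619 (MOR31) rose by 1.06 ± 0.17, Olfr652 by 1.06 ± 0.13 and Olfr571 (MOR21) by 1.05 ± 0.12, with all 8 alb-SREBP-1a∆P arrays above C57Bl6 in each. Olfr606 (MOR17) rose by 1.02 ± 0.19 with 7 of 8 arrays above. Olfr689 (MOR40) rose by 0.99 ± 0.15, and it is 1 of the 11 genes whose near-copies share a probe set. Each of these 6 genes, and the 4 above, also rose after each of the 3 other scalings.

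**Figure D2:**
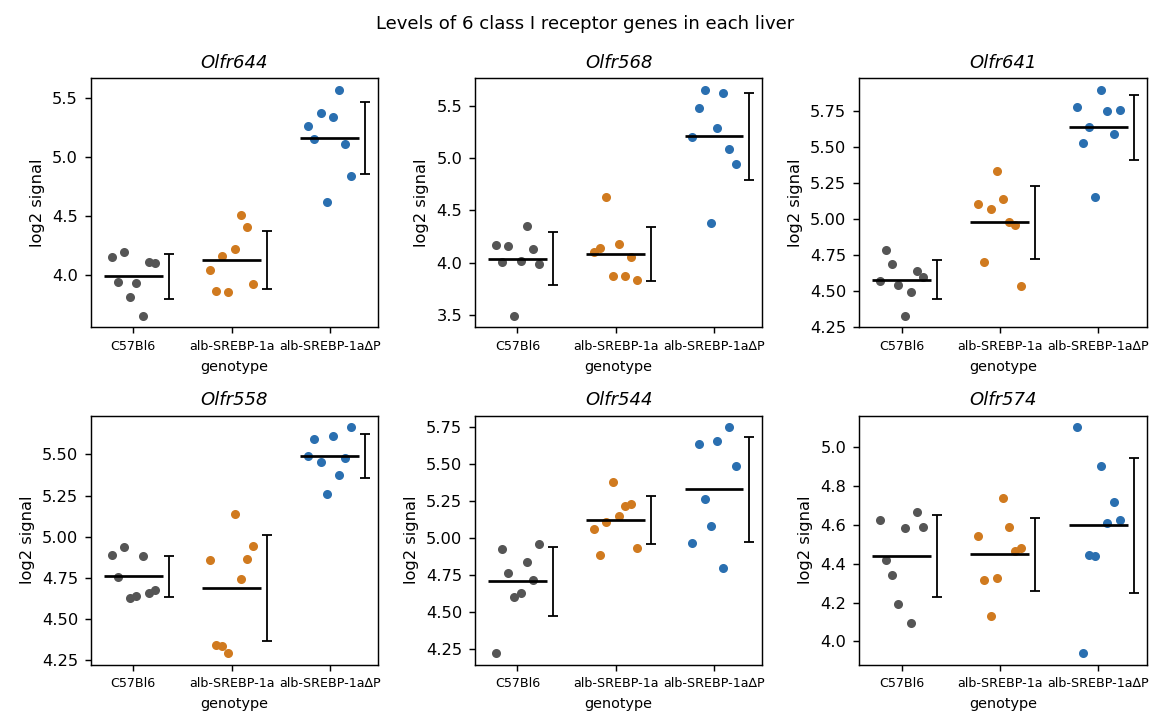
Log2 signal of 6 class I receptor genes in each liver, by genotype; points are mice, lines the means and bars the SD over 8 mice. Olfr644 and Olfr558 in alb-SREBP-1a∆P lie above all other arrays, Olfr544 is higher in both transgenic lines than in most C57Bl6 arrays, and Olfr574 overlaps in all 3.

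Among receptors with a known ligand or a role outside the main olfactory epithelium, Olfr558, a receptor for short-chain fatty acids that is also found in vessels and gut, ran from 4.63 to 4.94 with a median of 4.71 in C57Bl6, from 4.29 to 5.14 with a median of 4.80 in alb-SREBP-1a and from 5.26 to 5.67 with a median of 5.48 in alb-SREBP-1a∆P. None of the 8 alb-SREBP-1a∆P arrays overlapped the other genotypes, and the rise against C57Bl6 was 0.73 ± 0.076 (adjusted p = 1.77e-06). Olfr544, a receptor for azelaic acid, a dicarboxylic acid, ran from 4.22 to 4.96 with a median of 4.74 in C57Bl6, from 4.88 to 5.38 with a median of 5.13 in alb-SREBP-1a and from 4.80 to 5.75 with a median of 5.37 in alb-SREBP-1a∆P. It rose by 0.62 ± 0.14 (adjusted p = 0.00221), and after quantile normalization by 0.38 (adjusted p = 0.064), which did not pass. Its neighbour Olfr545 of the same family, MOR42, rose by 0.50 ± 0.14. Olfr545 was at 5.61 to 5.86 in C57Bl6 and at 5.87 to 6.92 in alb-SREBP-1a∆P, without overlap. Olfr692, a receptor of the vomeronasal organ, was at 4.79 to 5.47 and 5.06 to 6.07, and its rise of 0.34 ± 0.13 (adjusted p = 0.0406) did not pass after any of the 3 other scalings. Further members of the end of the cluster were Olfr691 with 0.79 ± 0.16 and Olfr690 with 0.53 ± 0.12, of which Olfr690 did not pass after quantile normalization or cyclic loess. Olfr642, which carries the sterol motif, rose by 0.72 ± 0.13 and also after the 3 other scalings. Whether the motif bears on this rise was not tested.

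The 15 genes that did not pass were Olfr552, Olfr564, Olfr574, Olfr589, Olfr591, Olfr598, Olfr600, Olfr601, Olfr611, Olfr624, Olfr629, Olfr631, Olfr653, Olfr656 and Olfr670, with changes of 0.094 to 0.41. The value nearest to 0 was that of Olfr624, at 0.094 ± 0.14 (adjusted p = 0.592), with −0.18, −0.067 and −0.29 after quantile normalization, centring and cyclic loess. Olfr624 was the dimmest of the receptors named here and ran from 1.87 to 2.62 with a median of 2.35 in C57Bl6, from 1.84 to 2.55 with a median of 1.97 in alb-SREBP-1a and from 1.81 to 2.85 with a median of 2.38 in alb-SREBP-1a∆P, overlapping throughout. Olfr574 changed by 0.16 ± 0.14, with −0.14, −0.0029 and −0.14 after the same scalings. Its alb-SREBP-1a∆P arrays, at 3.94 to 5.10, spread wider than its C57Bl6 arrays, at 4.10 to 4.67. Olfr670 changed by 0.21 ± 0.17, and by −0.058 and −0.067 after quantile normalization and cyclic loess.

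Fewer receptor genes were called in alb-SREBP-1a liver against C57Bl6. Of the 108 genes 5 (4.63%) rose, 0 fell and 103 did not pass, while 6.77% of all probe sets rose and 3.98% fell. The median change was 0.052, against 0.011 over all probe sets, and 37 values were below 0, or 53, 34 and 42 after quantile normalization, centring and cyclic loess. In 0 genes were the genotypes fully separated upwards, against 2.03% of all probe sets, and 0 rose at least 1.5-fold, against 2.22%. The share that rose was thus near the share on the whole array. The methods' t-test with the same adjustment also gave 5, and leaving out alb-SREBP-1a replicates 1 and 2 gave 7.

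The 5 genes were Olfr597, Olfr544, Olfr641, Olfr619 and Olfr557. Olfr597, of family MOR23, ran from 2.22 to 2.70 with a median of 2.45 in C57Bl6, from 2.54 to 3.33 with a median of 3.0 in alb-SREBP-1a and from 2.98 to 3.90 with a median of 3.35 in alb-SREBP-1a∆P and changed by 0.48 ± 0.11 (adjusted p = 0.00756). Its alb-SREBP-1a arrays lay above all C57Bl6 arrays in 7 of 8 mice. Olfr544 changed by 0.41 ± 0.10 (adjusted p = 0.0135), with 6 of 8 mice above, and Olfr641 by 0.40 ± 0.10 (adjusted p = 0.0171), also with 6 of 8. Olfr557, a neighbour of Olfr558 in family MOR18, changed by 0.30 ± 0.076 (adjusted p = 0.0158) and Olfr619 by 0.39 ± 0.11 (adjusted p = 0.0293). Olfr619 did not pass after quantile normalization or cyclic loess, and the other 4 passed after all 3 scalings. All 5 also rose in alb-SREBP-1a∆P liver, and 0 genes rose against C57Bl6 only in alb-SREBP-1a. The comparisons share the C57Bl6 arrays. Olfr558 stood at −0.069 ± 0.12 (adjusted p = 0.778) and Olfr644 at 0.14 ± 0.11 (adjusted p = 0.479) in alb-SREBP-1a, neither of which passed. The values nearest to 0 were those of Olfr607, Olfr553 and Olfr577, at −0.0033 ± 0.16, −0.0041 ± 0.11 and 0.0050 ± 0.098, whose signs turn under other settings.

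Between the lines, 84 of the 108 genes (77.8%) were higher with alb-SREBP-1a∆P, 0 were lower and 24 did not pass, against 22.8% and 21.4% of all probe sets. The median difference was 0.55, against 0.081 over all probe sets, and 107 differences were above 0. In 12 genes (11.1%) the lines did not overlap, against 1.88% of all probe sets, and 50 were at least 1.5-fold higher, against 7.23%. After quantile normalization 36 genes passed, after centring 56 and after cyclic loess 33, when 9.62%, 10.1% and 11.3% of all probe sets were higher. The shifts of the median over all probe sets were −0.10, −0.17 and −0.085, and 32 genes (29.6%) passed under all of them. The matching share of all probe sets was not computed, and it cannot exceed the 9.62% after quantile normalization. In the deposited scaling the count was 93 without alb-SREBP-1a∆P replicate 4, and 73 without alb-SREBP-1a replicates 1 and 2.

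The largest differences between the lines were those of Olfr568, at 1.12 ± 0.16 (adjusted p = 0.000193), Olfr622, at 1.07 ± 0.19, and Olfr644, at 1.04 ± 0.13 (adjusted p = 0.000118). Then came Olfr669 at 0.95 ± 0.17, Olfr606 at 0.93 ± 0.22, Olfr605 at 0.91 ± 0.19 and Olfr571 at 0.91 ± 0.11. Olfr577, of family MOR7, ran from 4.15 to 4.76 with a median of 4.38 in alb-SREBP-1a and from 4.83 to 5.56 with a median of 5.35 in alb-SREBP-1a∆P, without overlap, and differed by 0.90 ± 0.12. Olfr549 and Olfr586 differed by 0.90 ± 0.15 and 0.88 ± 0.12. Olfr558 was 1.74-fold higher in alb-SREBP-1a∆P, at 0.80 ± 0.12 (adjusted p = 0.000235), and all 8 arrays lay above those of alb-SREBP-1a. Olfr544 differed by 0.21 ± 0.13 (adjusted p = 0.209), with −0.013 after quantile normalization and −0.035 after cyclic loess, so that no difference between the lines was called for it.

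The other fixed receptors were Olfr691 at 0.71 ± 0.14, Olfr641 at 0.66 ± 0.12, Olfr642 at 0.65 ± 0.13, Olfr545 at 0.47 ± 0.14, Olfr692 at 0.45 ± 0.13 and Olfr690 at 0.34 ± 0.12, all of which passed in the deposited scaling. Of these, Olfr545, Olfr690 and Olfr692 failed the test after centring, and after quantile normalization. Olfr598 (MOR23) had the single value below 0, at −0.028 ± 0.18 (adjusted p = 0.909). It ran from 3.71 to 4.38 with a median of 4.08 in C57Bl6, from 4.12 to 5.06 with a median of 4.32 in alb-SREBP-1a and from 4.0 to 5.19 with a median of 4.31 in alb-SREBP-1a∆P. Olfr574 and Olfr631 differed by 0.15 ± 0.14 and 0.19 ± 0.18, which did not pass, and Olfr574 was at −0.10, −0.018 and −0.14 after the 3 scalings. Over the 3 comparisons, 11 genes rose in none.

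Rises in alb-SREBP-1a∆P against C57Bl6 were called in each stretch of the cluster, where 27.0% of all probe sets rose. Of the 61 genes before the beta-globin genes 50 rose, with a median of 0.66. Of the 15 between the beta-globin and the Trim genes 14 rose, with 0.71, and of the 32 after the Trim genes 29 rose, with 0.55. The 3 counts became 24, 10 and 10 after quantile normalization, 44, 13 and 18 after centring and 29, 10 and 10 after cyclic loess. The shares of all probe sets that rose were then 12.9%, 13.4% and 16.0%. Between the lines 47, 14 and 23 genes were higher, against 22.8% of all probe sets, with medians of 0.56, 0.65 and 0.45. After quantile normalization these counts were 22, 7 and 7, when 9.62% of all probe sets were higher. Against C57Bl6, alb-SREBP-1a had 4, 1 and 0 rises in these stretches (6.56%, 6.67% and 0%), near or below the 6.77% of all probe sets. Differences between the stretches were not tested.

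**Figure D3:**
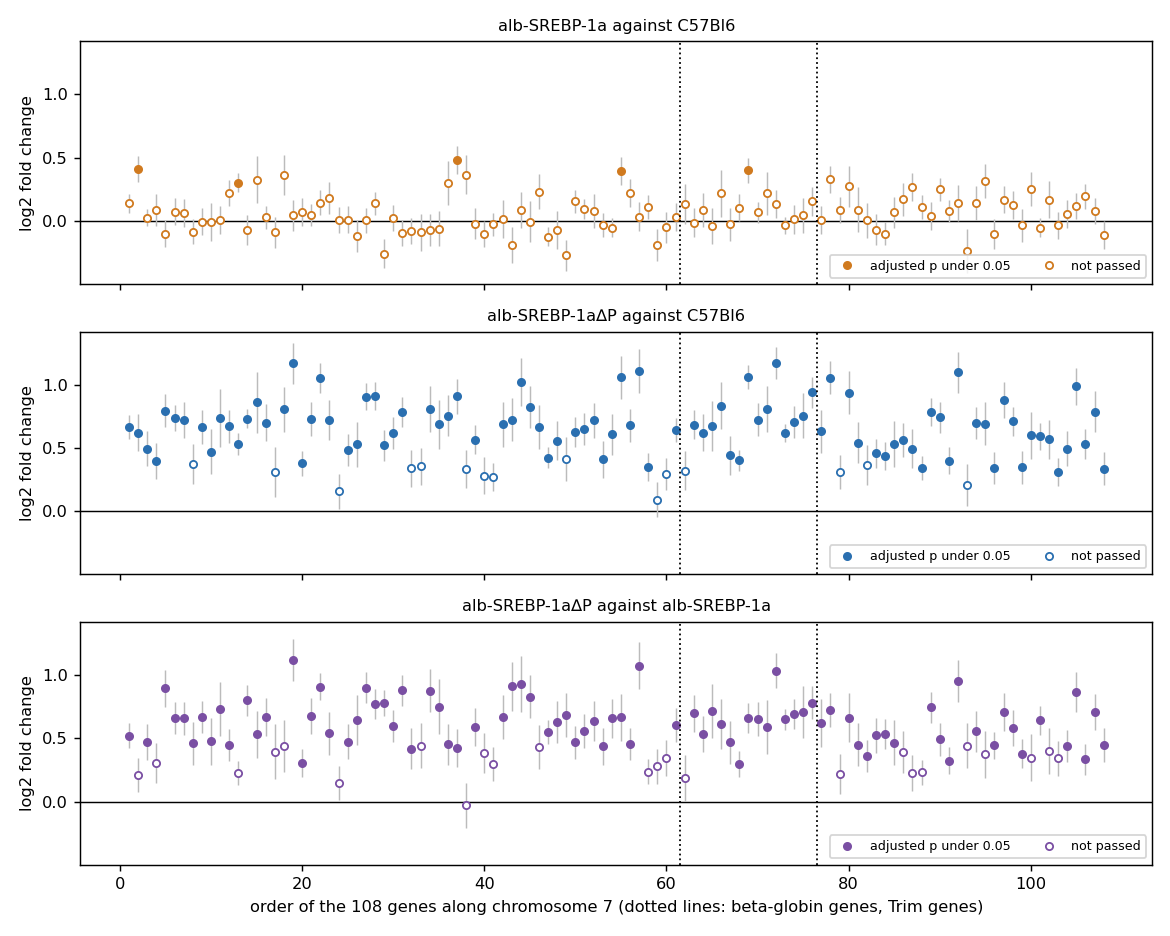
Log2 fold change ± standard error of each of the 108 genes, in their order along chromosome 7, for the 3 comparisons (8 against 8 arrays). Filled points passed at an adjusted p under 0.05, and dotted lines mark the beta-globin and the Trim genes. In the middle panel 93 points are filled along the whole cluster, in the upper panel 5.

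By receptor family, all 6 genes of MOR13, 10 of 10 of MOR31, 7 of 7 of MOR34 and 7 of 7 of MOR40 rose in alb-SREBP-1a∆P against C57Bl6, with medians of 0.77, 0.69, 0.53 and 0.57. In this comparison 27.0% of all probe sets rose. After quantile normalization 5, 5, 3 and 1 genes of these families rose, when 12.9% of all probe sets did. The share in MOR40, 14.3%, was then near that of all probe sets. In MOR14, 4 of 6 rose and in MOR32, 9 of 11, with medians of 0.66 and 0.69. After quantile normalization 2 and 3 of them rose. Between the lines, MOR40 had 3 of 7 and MOR13 6 of 6 genes that passed, against 22.8% of all probe sets. Genes of 1 family are similar in sequence and can share probes, so they are not independent. The 10 probe sets shared by several symbols of the range gave 10 rises in alb-SREBP-1a∆P against C57Bl6, 8 between the lines and 0 with the unmutated transgene. The shares of all probe sets that rose were 27.0%, 22.8% and 6.77% in the same order. Both probe sets of Olfr617 rose in alb-SREBP-1a∆P, by 0.41 ± 0.14 for the brighter and 1.16 ± 0.15 for the dimmer, so that probe sets of this gene disagreed in size.

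Spread between mice was widest in alb-SREBP-1a∆P. The median SD of a receptor gene over 8 mice was 0.35 there, against 0.20 in C57Bl6 and 0.26 in alb-SREBP-1a. Over all probe sets these were 0.26, 0.20 and 0.22. Olfr645 varied least in C57Bl6, with an SD of 0.051, and Olfr558 least in alb-SREBP-1a∆P, with 0.13. Olfr555 varied most there, with 0.63.

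Dim probe sets in general were higher in alb-SREBP-1a∆P. Over all 14222 probe sets of the dimmest 4 of the 10 groups by signal, 40.7% rose against C57Bl6 with a median of 0.29, and of the 97 receptor genes among them 84 (86.6%) rose with a median of 0.64. Between the lines the shares were 32.8% and 76.3%, with medians of 0.26 and 0.55. In alb-SREBP-1a against C57Bl6 they were 3.21% and 5.15%, with 0.042 and 0.065. Groups 2, 3 and 4, which hold 34, 35 and 20 receptor genes, had receptor medians of 0.62, 0.67 and 0.72 against C57Bl6 in alb-SREBP-1a∆P, where all probe sets had 0.32, 0.27 and 0.23. In group 10, the brightest, which held no receptor of the set, the median of all probe sets was −0.20. What the dimness of these probe sets contributes to their rise was not tested.

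**Figure D4:**
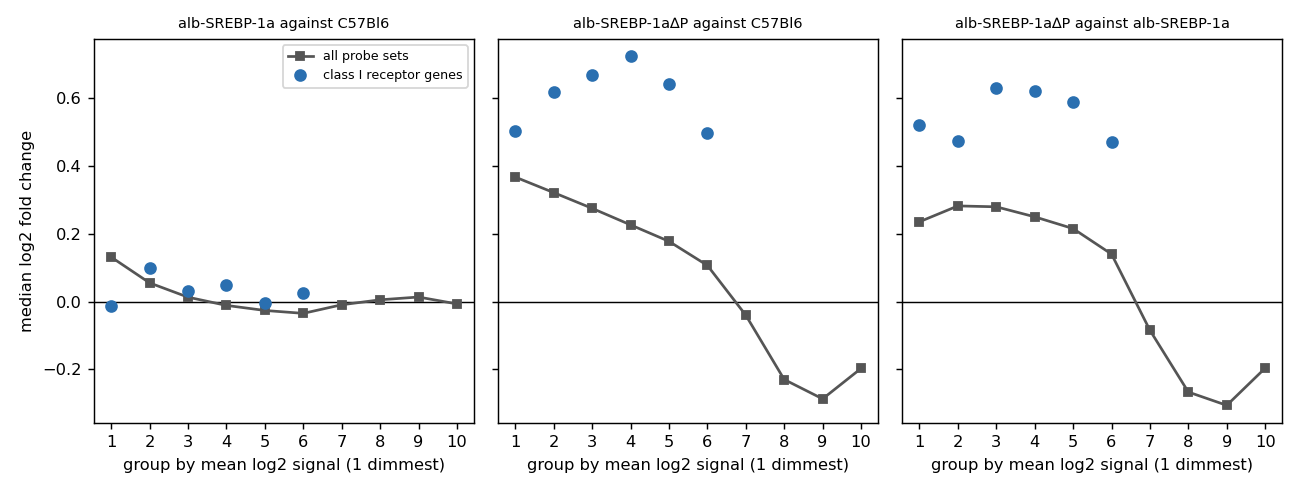
Median log2 fold change of all probe sets (squares) and of the class I receptor genes (circles) in 10 equal groups by mean log2 signal, for the 3 comparisons. The receptor medians lie above those of all probe sets in groups 1 to 6 in both comparisons with alb-SREBP-1a∆P, and groups 1, 5 and 6 hold only 8, 8 and 3 receptor genes.

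Other chemosensory receptors also rose in alb-SREBP-1a∆P liver. Of 907 olfactory receptors outside the range, 741 (81.7%) rose in alb-SREBP-1a∆P against C57Bl6 and 1 fell, with a median of 0.54, against 27.0% and 20.2% of all probe sets. Of 117 vomeronasal type 1 receptors, the pheromone receptors of Vmn1r genes, 97 (82.9%) rose with a median of 0.56, and of 46 vomeronasal type 2 receptors 35 (76.1%) rose with 0.42. After quantile normalization 30.9%, 25.6% and 19.6% of these groups rose, when 12.9% of all probe sets and 40.7% of the class I genes did. After centring 57.3%, 53.8% and 41.3% rose, against 13.4% of all probe sets. After cyclic loess 31.1%, 23.9% and 15.2% rose, against 16.0%, so the type 2 share was then near that of all probe sets. Between the lines 67.3%, 54.7% and 43.5% were higher with alb-SREBP-1a∆P, against 22.8% of all probe sets. These shares were 24.3%, 17.9% and 8.70% after quantile normalization, against 9.62%, and 38.8%, 33.3% and 15.2% after centring, against 10.1%. After cyclic loess they were 21.3%, 13.7% and 6.52%, against 11.3%. The type 2 share was thus below that of all probe sets after quantile normalization and cyclic loess. In alb-SREBP-1a against C57Bl6 the counts were 23, 4 and 2 (2.54%, 3.42% and 4.35%), below the 6.77% of all probe sets. Rises were thus also measured outside the class I cluster, and the difference between these groups was not tested.

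Against C57Bl6, the signalling genes of olfactory neurons were called about as often as probe sets in general. Of 24 measured genes of signal transduction and receptor expression, 6 rose (25%), 4 fell (16.7%) and 14 did not pass in alb-SREBP-1a∆P against C57Bl6, with a median of 0.14, while 27.0% of all probe sets rose and 20.2% fell. After quantile normalization, centring and cyclic loess 1, 1 and 2 of them rose and 4, 5 and 2 fell. Of all probe sets 12.9%, 13.4% and 16.0% then rose and 18.8%, 28.7% and 15.3% fell. Lbr, a lamin B receptor that is switched off in olfactory neurons, fell by 0.84 ± 0.11, and Ric8b, an exchange factor for Gnal, fell by 0.57 ± 0.080. Slc24a4, a calcium exchanger of olfactory cilia, rose by 0.39 ± 0.074, and the G protein subunit Gnb1 fell by 0.40 ± 0.082. Slc24a4 was at 0.11 after both quantile normalization and cyclic loess, with adjusted p of 0.275 and 0.253, and Gnb1 at −0.19 (adjusted p = 0.065) after cyclic loess, none of which passed. Lbr and Ric8b fell under all 3 other scalings. With the unmutated transgene 2 rose (8.33%) and 1 fell (4.17%), near the 6.77% and 3.98% of all probe sets: the homeodomain factor Lhx2 by 0.32 ± 0.072, its cofactor Ldb1 by 0.31 ± 0.064, and Lbr, at −0.48 ± 0.076. Between the lines 9 were higher (37.5%) and 5 lower (20.8%) with alb-SREBP-1a∆P, against 22.8% and 21.4% of all probe sets. After the 3 other scalings 1, 1 and 2 were higher, when 9.62%, 10.1% and 11.3% of all probe sets were. Among those lower were the demethylase Kdm1a, at −0.52 ± 0.086, and Lhx2, at −0.44 ± 0.10.

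Markers of olfactory sensory neurons, 14 of 14 measured, gave a mean log2 signal per array of 5.19 to 5.50 in alb-SREBP-1a∆P, overlapping the alb-SREBP-1a range of 5.14 to 5.45 and 5.24 to 5.41 in C57Bl6. In alb-SREBP-1a∆P against C57Bl6, 3 of them rose (21.4%), namely Ano2, Rtp1 and Adcy3, and 2 fell (14.3%), Ncam2 and Ric8b, both below the shares of all probe sets, 27.0% and 20.2%. None of Ano2, Rtp1 and Adcy3 passed after any of the 3 other scalings. The defining markers Omp, Gnal and Cnga2 changed by 0.31 ± 0.14, 0.23 ± 0.097 and 0.15 ± 0.14, none of which passed. Between the lines 7 were higher (50%) and 2 lower, against 22.8% and 21.4% of all probe sets. After quantile normalization, centring and cyclic loess 1, 0 and 2 were higher, when 9.62%, 10.1% and 11.3% of all probe sets were. Omp, at 0.44 ± 0.14, and Cnga2, at 0.32 ± 0.11, were among the 7, and neither passed after the other scalings. Hepatocyte markers fell in 4 of 6 genes (66.7%, against a share of 20.2% on the whole array) when alb-SREBP-1a∆P was compared with C57Bl6. They fell in 2, 5 and 1 genes after the 3 other scalings, when 18.8%, 28.7% and 15.3% of all probe sets fell. Alb was at −0.16 ± 0.058, which passed only as deposited and after centring, and Cps1 at −0.44 ± 0.071, which passed under each scaling. Of 7 markers of Kupffer cells and macrophages, 4 rose (57.1%) in each line against C57Bl6, when 6.77% and 27.0% of all probe sets did. With alb-SREBP-1a the count was 4 after each other scaling too, while alb-SREBP-1a∆P gave 4, 1 and 5. Between the lines 3 were lower with the mutated transgene, against 21.4% of all probe sets. After the other scalings 0, 5 and 0 were lower, against 13.8%, 32.1% and 10.4% of all probe sets. Of 9 erythroid markers 2 were measured, and neither passed in any comparison as deposited. The part of cell makeup in the receptor values was not tested.

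Genes of other kinds inside the cluster were measured for 19 of 59 symbols. In alb-SREBP-1a∆P against C57Bl6, 8 rose (42.1%) and 0 fell, with a median of 0.26, against 27.0% and 20.2% of all probe sets. They were the ubiquitin ligase Trim6 (0.49 ± 0.11), the globin gene Hbb-bh2 (0.53 ± 0.15), Ubqlnl (0.50 ± 0.12), the deubiquitinases Usp17la, Usp17lb, Usp17lc and Usp17ld, and Olfm5. After quantile normalization, centring and cyclic loess 0, 3 and 0 rose, the 3 being Trim6, Hbb-bh2 and Ubqlnl, and 2, 2 and 1 fell. Of all probe sets 12.9%, 13.4% and 16.0% then rose and 18.8%, 28.7% and 15.3% fell. As deposited, 1 of 9 Trim genes rose (11.1%), Trim6, and 1 of 3 beta-globin genes, Hbb-bh2. In alb-SREBP-1a the single rise (5.26%, against 6.77% of all probe sets) was that of Trim12a, a Trim gene between the receptors, at 0.68 ± 0.15. Between the lines 4 were higher (21.1%) and 3 lower (15.8%) in alb-SREBP-1a∆P, below the 22.8% and 21.4% of all probe sets. The 3 were Trim12a at −0.95 ± 0.16, Trim30d at −0.67 ± 0.16 and Trim30a at −0.50 ± 0.16, of which Trim30a did not pass after quantile normalization or cyclic loess.

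**Figure D5:**
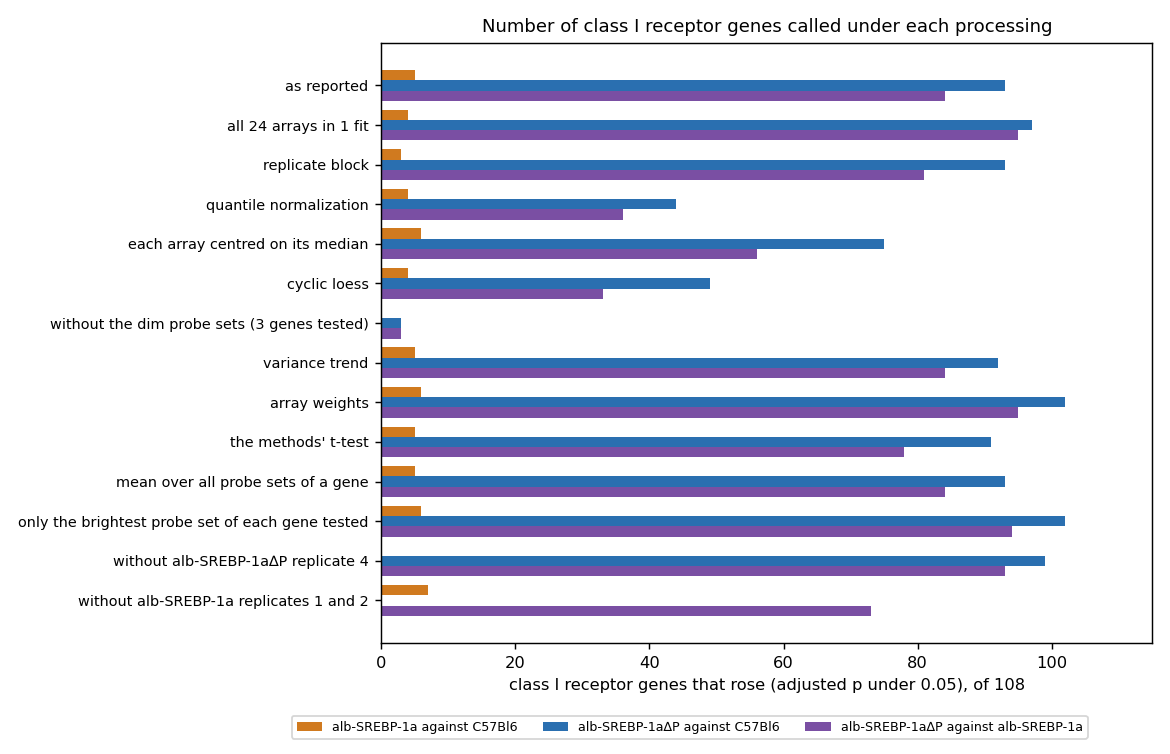
Number of the 108 genes that rose at an adjusted p under 0.05 under each processing, for the 3 comparisons, with no bar where 0 rose or where the arrays left out belong to neither genotype compared. Quantile normalization and cyclic loess lower the counts with alb-SREBP-1a∆P to between 33 and 49, and without the dim probe sets only 3 of the genes could be tested.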

How the data were processed

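Liver RNA (150 ng per array) of 24 mice was hybridised to Affymetrix Mouse Gene 1.0 ST arrays, 8 per genotype as the labels give it. The deposited table holds log2 values of 35556 probe sets, summarised by the authors with RMA (Affymetrix Expression Console 1.1), and the methods name Transcriptome Analysis Console 2.0 for analysis. Further RMA settings and the build of the array annotation were not given in the sources used here. Of the probe sets, 21789 carry 1 symbol, 1621 several and 12146 none. Background scaling and summarisation by RMA bear most on dim probe sets, and no detection call was used.

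For each pair of genotypes, 8 against 8 arrays, all probe sets entered a fit in limma 3.58.1 (R 4.3.3), with Benjamini-Hochberg adjustment and a threshold of 0.05. Fits were tested on simulated data. The p-values rest on the spread between mice, and the number of arrays limits the precision. Python 3.11.15, pandas 2.3.3, numpy 2.4.6 and matplotlib 3.10.9 served for sequences and figures. Genes, lists and alternatives were chosen with earlier results of these data known. Genes named were 9 receptors picked for a known ligand or place of expression or named by the study, the 10 largest rises and falls that passed and the 3 changes nearest to 0 in each comparison, and up to 4 genes of each list. The 15 genes that did not pass, single list members and the genes of extreme spread are named beyond this rule and were chosen after their values were seen.

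Alternatives were all 24 arrays in 1 fit, a replicate block, cyclic loess, quantile normalization, centring (subtracting an array's median), dropping probe sets dimmer than the median, array weights, a variance trend, the methods' t-test, a fold of at least 1.5, the mean over a gene's probe sets, 1 probe set per gene, and leaving out replicates 1 and 2 of alb-SREBP-1a, or replicate 4 of alb-SREBP-1a∆P. Their use on 2 gene lists, and the 3 other scalings for all lists, stretches, families and receptor groups, were added after seeing the data. Correlations between arrays ran from 0.917 to 0.990.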

Additional observations from a re-analysis of the deposited data

Results flagged for a closer look

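The 93 sets of 8 arrays examined were mostly those of the 30 named receptors in each genotype. In 6 of the 93 sets, 1 array lay far from the others by Dixon's test, and chance gives about 1 in 20. Olfr553 in C57Bl6 replicate 5 was at 4.73, the highest of its 8 arrays, with the nearest other at 4.29. Olfr553 in alb-SREBP-1a∆P replicate 6 was at 5.61, the highest of its 8 arrays, with the nearest other at 4.89. Olfr568 in C57Bl6 replicate 4 was at 3.49, the lowest of its 8 arrays, with the nearest other at 3.99. Olfr568 in alb-SREBP-1a replicate 3 was at 4.63, the highest of its 8 arrays, with the nearest other at 4.18. Olfr586 in alb-SREBP-1a replicate 5 was at 5.04, the highest of its 8 arrays, with the nearest other at 4.68. Olfr631 in alb-SREBP-1a∆P replicate 1 was at 3.95, the highest of its 8 arrays, with the nearest other at 3.38. The calls on these genes include these arrays.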

How the results depend on the processing

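In alb-SREBP-1a∆P against C57Bl6 the median change of the 108 genes was 0.64 as deposited, 0.35 after quantile normalization, 0.48 after centring and 0.36 after cyclic loess, with 93, 44, 75 and 49 rises. Between the lines it was 0.55, 0.31, 0.38 and 0.28, with 84, 36, 56 and 33, and 50 at a fold of at least 1.5. Alb-SREBP-1a against C57Bl6 kept 3 to 7 rises except at a fold of at least 1.5 and without the dim probe sets, with 0 each, when 3 receptors remained to be tested and 3 rose in both other comparisons. No setting gave a fall. Of all calls in alb-SREBP-1a∆P against C57Bl6, 57.1% were higher as deposited, and 40.6%, 31.9% and 51.2% after the scalings. Between the lines these were 51.6%, 41.1%, 23.9% and 52.2%, and in alb-SREBP-1a 63.0%, 51.6%, 66.8% and 56.8%. The cause was not tested.

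Same-numbered mice were not treated as pairs in the main fits. Their deviations correlated by −0.12 to 0.28 over the 3 comparisons, above 0.1 in 2, 1 and 2 of 8 pairs. The mouse of the same number was the best match in 2, 3 and 2 of 8. Whether this exceeds chance was not tested. With the replicate block 3, 93 and 81 receptors rose, for alb-SREBP-1a, for the mutated transgene and between the lines.

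Of 696 values of named receptors under alternatives, 639 kept direction and side of the threshold, 32 no longer passed and 25 changed sign. Those that changed sign were, in alb-SREBP-1a against C57Bl6, after quantile normalization Olfr577 (−0.044), Olfr691 (−0.0038); after centring Olfr607 (0.0031), Olfr553 (0.0023); with array weights Olfr553 (0.057), Olfr545 (−0.0083); without alb-SREBP-1a replicates 1 and 2 Olfr553 (0.051), Olfr577 (−0.048), Olfr545 (−0.0067). In alb-SREBP-1a∆P against C57Bl6 they were after quantile normalization Olfr624 (−0.18), Olfr574 (−0.14), Olfr670 (−0.058); after centring Olfr624 (−0.067), Olfr574 (−0.0029); after cyclic loess Olfr624 (−0.29), Olfr574 (−0.14), Olfr670 (−0.067). Between the lines they were after quantile normalization Olfr574 (−0.10), Olfr544 (−0.013); after centring Olfr574 (−0.018); after cyclic loess Olfr574 (−0.14), Olfr631 (−0.075), Olfr544 (−0.035); with array weights Olfr598 (0.030); without alb-SREBP-1a∆P replicate 4 Olfr598 (0.0041). Low signal limits what can be said of the 108 receptors. Of them 97 lie in the dimmest 4 of 10 groups by signal, and only 3 are brighter than the median of all probe sets.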
